A study of Mus musculus with 12 samples.

Results

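The genes described here are the subunits of the oxidative phosphorylation complexes that are encoded in the nucleus, with cytochrome c, the small electron carrier between complexes III and IV. They were taken by name from the deposited count table: protein-coding genes whose symbol marks a subunit of complexes I to V (Ndufa, Ndufb, Ndufc, Ndufs and Ndufv with a digit, Sdha to Sdhd, Uqcr, Cyc1, Cox4 to Cox8, and Atp5) or cytochrome c (Cycs), with no pseudogene suffix and a mean of at least 1 CPM (counts scaled to the size of the library). Of 55401 gene IDs, 99 had such a name and 81 met the rule, 36 of them in complex I, 4 in complex II, 9 in complex III, 14 in complex IV and 17 in complex V, with Cycs apart. Of the 18 that did not, 8 had a pseudogene suffix, 4 were not annotated as protein coding and 6 were protein coding but below 1 CPM. The rule used the mean over all libraries and not the difference between groups. Just inside its threshold lay Cox6b2 at 1.02 CPM, Cox6a2 at 1.28 CPM and Cox7a1 at 2.85 CPM, and just outside it Cox4i2 at 0.0775 CPM.

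Bulk RNA sequencing was carried out on bone marrow derived macrophages, which are grown from the bone marrow of mice with the growth factor M-CSF and were harvested on day 7 of culture. The old group was made up of 6 libraries from mice aged 12 months and the young group of 6 libraries from mice aged 8 weeks, all on the C57BL6 background and with no treatment of the cells named in the labels beyond the culture itself. The labels call the libraries biological replicates and do not say whether each came from another animal, so the p-values rest on the spread between libraries alone, which may be technical. Cells that matured in a dish from marrow of old mice stand here for old macrophages, and the labels do not give the sex of the animals.

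Oxidative phosphorylation takes place in the inner mitochondrial membrane. Complexes I and II feed electrons from NADH and succinate into ubiquinone, complex III passes them to cytochrome c, and complex IV hands them to oxygen. Complexes I, III and IV pump protons as they do so, and complex V, the ATP synthase, uses the return of the protons to make ATP. Most subunits are encoded in the nucleus and imported, while a core set is encoded in mitochondrial DNA. In macrophages, interleukin-4 is known to favour oxidative phosphorylation, and bacterial lipopolysaccharide is known to shift cells towards glycolysis.

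Total assigned counts ranged from 19345587 to 22356812 in old libraries and from 22150081 to 25169045 in young libraries, and the 81 genes held 0.663% to 1.06% of them. All 81 passed the low-count filter with 12620 genes in all. The libraries carried the defining genes of macrophages: Lyz2, which encodes lysozyme, averaged 30232 ± 3208 CPM in old libraries and 30678 ± 5451 CPM in young libraries, and Csf1r, the M-CSF receptor, averaged 4324 ± 655 CPM in old and 4373 ± 974 CPM in young libraries (SD, n = 6 each). Several libraries stood apart. Genes of the cell division cycle (46) summed to 2540 TPM (a level that is scaled for gene length and library size) in old replicate 2 and 1774 TPM in old replicate 3, against 819 to 1122 TPM in the other old libraries, and to 4044 TPM in young replicate 6, against 943 to 1382 TPM in the other young libraries. The 13 macrophage markers summed to 77938 TPM in old replicate 2, against 88810 to 101287 TPM in the other old libraries, and to 64267 TPM in young replicate 6, against 89676 to 101091 TPM in the other young libraries. Old replicate 6 held T cell transcripts: its 8 T and NK cell markers summed to 45.2 TPM, against 0.289 to 0.829 TPM in the other old libraries and 0.230 to 0.573 TPM in young libraries. In the same library the 9 osteoclast markers summed to 463 TPM, against 126 to 211 TPM in the other old libraries and 143 to 192 TPM in young libraries. The 12 neutrophil markers summed to 182 to 371 TPM in old and 102 to 259 TPM in young libraries, and the 6 of them that were tested had a median log2 fold change (old over young) of 0.41 with 0 at an unadjusted p under 0.05. The 9 erythroid and megakaryocyte markers summed to 219 TPM in old replicate 2, against 85.3 to 150 TPM in the other old libraries, and to 183 TPM in young replicate 6, against 109 to 145 TPM in the other young libraries. Most of each sum was Pf4, a platelet chemokine, at a mean of 137 TPM in old and 132 TPM in young libraries. The summed B and plasma cell markers were at 2.61 to 6.65 TPM in old and 4.11 to 8.05 TPM in young libraries, the stromal and endothelial markers at 7.53 to 17.6 TPM in old and 8.72 to 15.3 TPM in young libraries, and Pax5, Mzb1, Hbb-bs, Hbb-bt, Col3a1 and Lum had a count of 0 in all libraries. The share of alignment records that aligned to several places was 13.4% in old replicate 2, against 11.5% to 12.4% in the other old libraries, and 14.2% in young replicate 6, against 12.1% to 12.6% in the other young libraries. The part of these cell types and of multiple alignment in the results below was not tested.

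Nearly all 81 genes had a slightly lower mean in old than in young macrophages, and for 0 of them did the difference pass the test. The log2 fold change, old over young, was negative for 80 of 81 genes (98.8%), against 52.5% of all 12620 genes tested. Its median was -0.15 over the 81 genes and -0.01 over all genes, and the values lay between -0.48 for Cox7a1 and 0.01 for Ndufs1. The 81 genes moved together from library to library, as described below. Counts of genes by sign or by p are therefore not counts of separate results, here or by complex. Of all genes tested, 17.5% had a log2 fold change at or below that of the median member. In bulk RNA, fewer cells of a type and less RNA per cell cannot be told apart.

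With edgeR's test and Benjamini-Hochberg adjustment over all genes, 0 members were called at 0.05, where 0.0158% of all genes were and 0% were called lower in old. The lowest adjusted p among members was 0.770. DESeq2 called 0 members too, with 0.0308% of all genes called lower and 0.0617% called higher in old, and so did limma voom, with 0% lower and 0.0238% higher. At an unadjusted p under 0.05, 11 members (13.6%) were lower in old, against 2.24% of all genes, and 0 members were higher, against 3.23%. That count of 11 depended on single libraries. It was 43 without old replicate 2 (5.67% of all genes), 14 without young replicate 1 (2.49%), 13 without young replicate 3 (3.21%), 7 without young replicate 2 (2.17%) and 6 without old replicate 3 (1.63%). It was 5 without old replicate 1 (1.64%), young replicate 4 (1.52%) or young replicate 6 (2.5%), 3 without old replicate 5 (1.45%) or young replicate 5 (1.33%), and 2 without old replicate 4 (1.3%) or old replicate 6 (1.2%). With scaling by library size alone it was 1 (1.01%), and with the replicate number as a block 6 (2.05%). The range of old libraries overlapped that of young libraries for every member, where 0.0951% of all genes lay wholly lower in old and 0.119% wholly higher. The standard error of a member's log2 fold change had a median of 0.10, so that a difference of 0.15 was of the order of its error gene by gene.

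The genes called among all 12620 were Bmpr1a, a receptor of bone morphogenetic proteins, at 13.8 ± 1.71 CPM in old and 0.785 ± 0.321 CPM in young libraries (SD, n = 6 each), and Gdf3, a ligand of the same superfamily. Neither is a member.

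**Figure D1:**
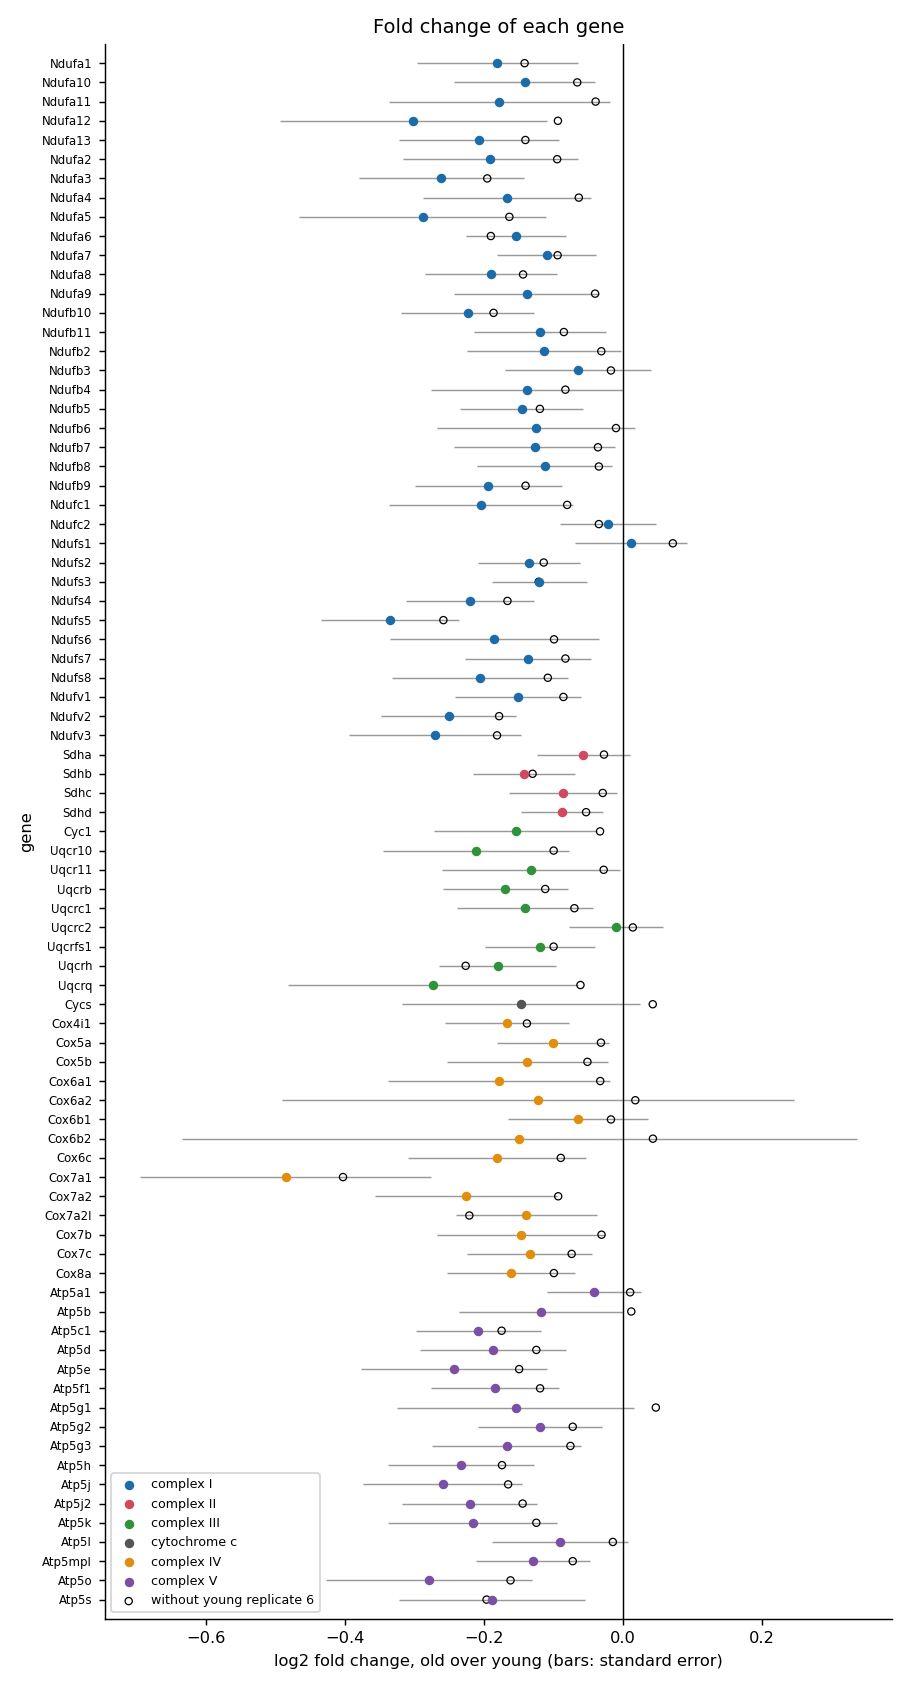
Log2 fold change (old over young) of each of the 81 genes (filled points, coloured by complex) with its standard error (bars), and the value without young replicate 6 (open circles). All filled points other than Ndufs1 at 0.01 lie below 0, with a median of -0.15, and the open circles have a median of -0.09.

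Summed over all 81 genes, the level per length was 12953 TPM in the lowest, 14071 TPM at the median and 18262 TPM in the highest old library, and 14671, 15199 and 20382 TPM in young libraries. The groups overlapped through old replicate 2, at 18262 TPM, and old replicate 3, at 15967 TPM, which lay above 5 of the 6 young libraries, while the 4 other old libraries, at 12953 to 14285 TPM, lay under all of them. The mean was 14814 ± 1972 TPM in old and 16031 ± 2172 TPM in young libraries (SD, n = 6 each), a gap smaller than the spread within either group. By complex, the means were 4476 ± 635 TPM in old and 4883 ± 662 TPM in young libraries for complex I, and 811 ± 63.3 TPM in old and 838 ± 79.1 TPM in young libraries for complex II. Complex III summed to 1847 ± 234 TPM in old and 2000 ± 259 TPM in young libraries, and complex IV to 4628 ± 637 TPM in old and 4972 ± 645 TPM in young libraries. Complex V summed to 3023 ± 415 TPM in old and 3306 ± 532 TPM in young libraries. In each complex the old mean was below the young mean by less than 1 SD, and the order of the complexes was the same in both groups. The median log2 fold change was -0.16 for complex I, -0.09 for complex II, -0.15 for complex III, -0.15 for complex IV and -0.19 for complex V.

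**Figure D2:**
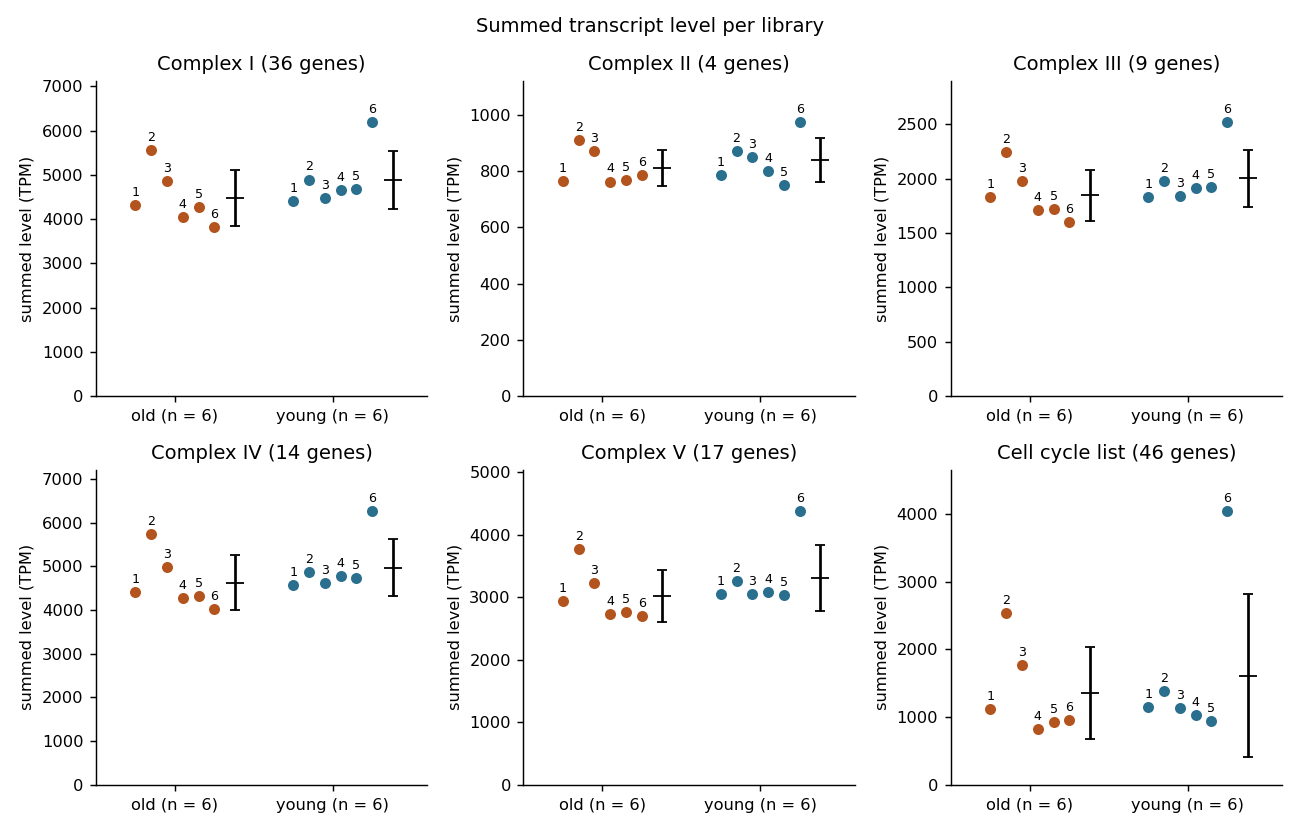
Summed TPM of the genes of complexes I to V and of the 46 cell cycle genes in each library (points, with the replicate number), old libraries left of young libraries, with the group mean and SD (n = 6 each). In all panels the highest old library is replicate 2 and the highest young library is replicate 6.

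Within each age group the members moved together from library to library. Old replicate 2 had the highest CPM of the old group for 69 of 81 genes (85.2%), against 29.2% of all genes, and young replicate 6 the highest of the young group for 69 of 81 (85.2%), against 34.4% of all genes. For 65 genes both held. Old replicate 6 was the lowest old library for 56 of 81 genes (69.1%), against 26.3% of all genes, and in the young group young replicate 3 was lowest for 38 genes and young replicate 1 for 26. Set against the median of the other 5 libraries of its group, as is each deviation of a library given below, the median member lay 0.35 (log2) higher in old replicate 2 and 0.36 higher in young replicate 6. It lay 0.13 higher in old replicate 3, 0.14 higher in young replicate 5 and at -0.21 in old replicate 6. These shifts exceeded the median age difference of -0.15 in size for both high libraries and for old replicate 6. The median shift over all genes lay between -0.0051 and 0.01 in every library, which scaling CPM by TMM factors itself brings about.

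**Figure D3:**
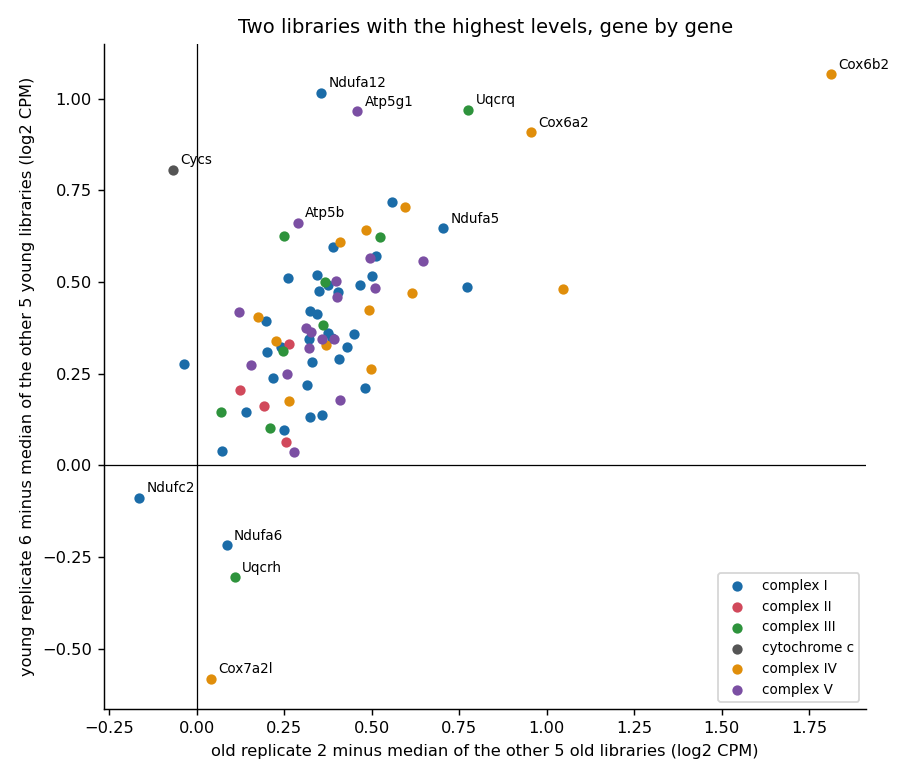
Each point is 1 of the 81 genes, coloured by complex, with its log2 CPM in old replicate 2 minus the median of the other 5 old libraries across, and in young replicate 6 minus the median of the other 5 young libraries upwards. Old replicate 2 is above 0 for 78 genes and young replicate 6 for 77, while Cycs lies at -0.07 in old replicate 2 and 0.81 in young replicate 6, and Cox7a2l at 0.04 in old replicate 2 and -0.58 in young replicate 6.

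The old libraries with the most cell cycle RNA, replicates 2 and 3, had the highest sums of the 81 genes within their group, and young replicate 6 led its group in both. For young replicates 5 and 2 the match depended on the measure. Young replicate 5 had the lowest cell cycle sum of the young group (943 TPM). Its mean log2 CPM of the 81 genes was the second highest of the group (6.15). Their sum in it, at 15132 TPM, lay under the young median of 15199 TPM. Young replicate 2, second in cell cycle genes (1382 TPM), lay at -0.02 for the median member. Its sum of the 81 genes, at 15888 TPM, was the second highest. CPM use TMM factors and TPM do not, and the factor of young replicate 5 (0.918) was the lowest of all libraries. The log2 fold change was negative for 52.5% of all genes tested. Cell cycle genes themselves had a median log2 fold change of -0.31, with 45 of 46 negative and 0 at an unadjusted p under 0.05. With the mean level of these genes as a covariate, the median over the members was -0.11, 79 of 81 were negative, and 18 had an unadjusted p under 0.05, against 3.28% of all genes lower in old. Without old replicates 2 and 3 and young replicate 6, the median was -0.20, 78 of 81 were negative and 51 had an unadjusted p under 0.05, against 8.81% of all genes lower in old. In that comparison of 4 old with 5 young libraries the mean log2 CPM of the 81 genes was 5.71 to 5.90 in old and 5.93 to 6.15 in young libraries, and the lowest adjusted p of a member in edgeR's test was 0.123, so that 0 members were called, with 0.0157% of all genes called lower and 0.00785% called higher in old. Old replicates 2 and 3 had the highest levels of the 81 genes in their group, so the gap between these ranges follows from leaving them out. How far the count of 51 does was not tested. With old replicate 6 also left out, the median was -0.16 and 39 members had an unadjusted p under 0.05, against 5.46% of all genes. Leaving out old replicate 6 alone gave a median of -0.12 with 81 of 81 negative, and leaving out young replicate 6 alone a median of -0.09 with 73 of 81 negative.

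**Figure D4:**
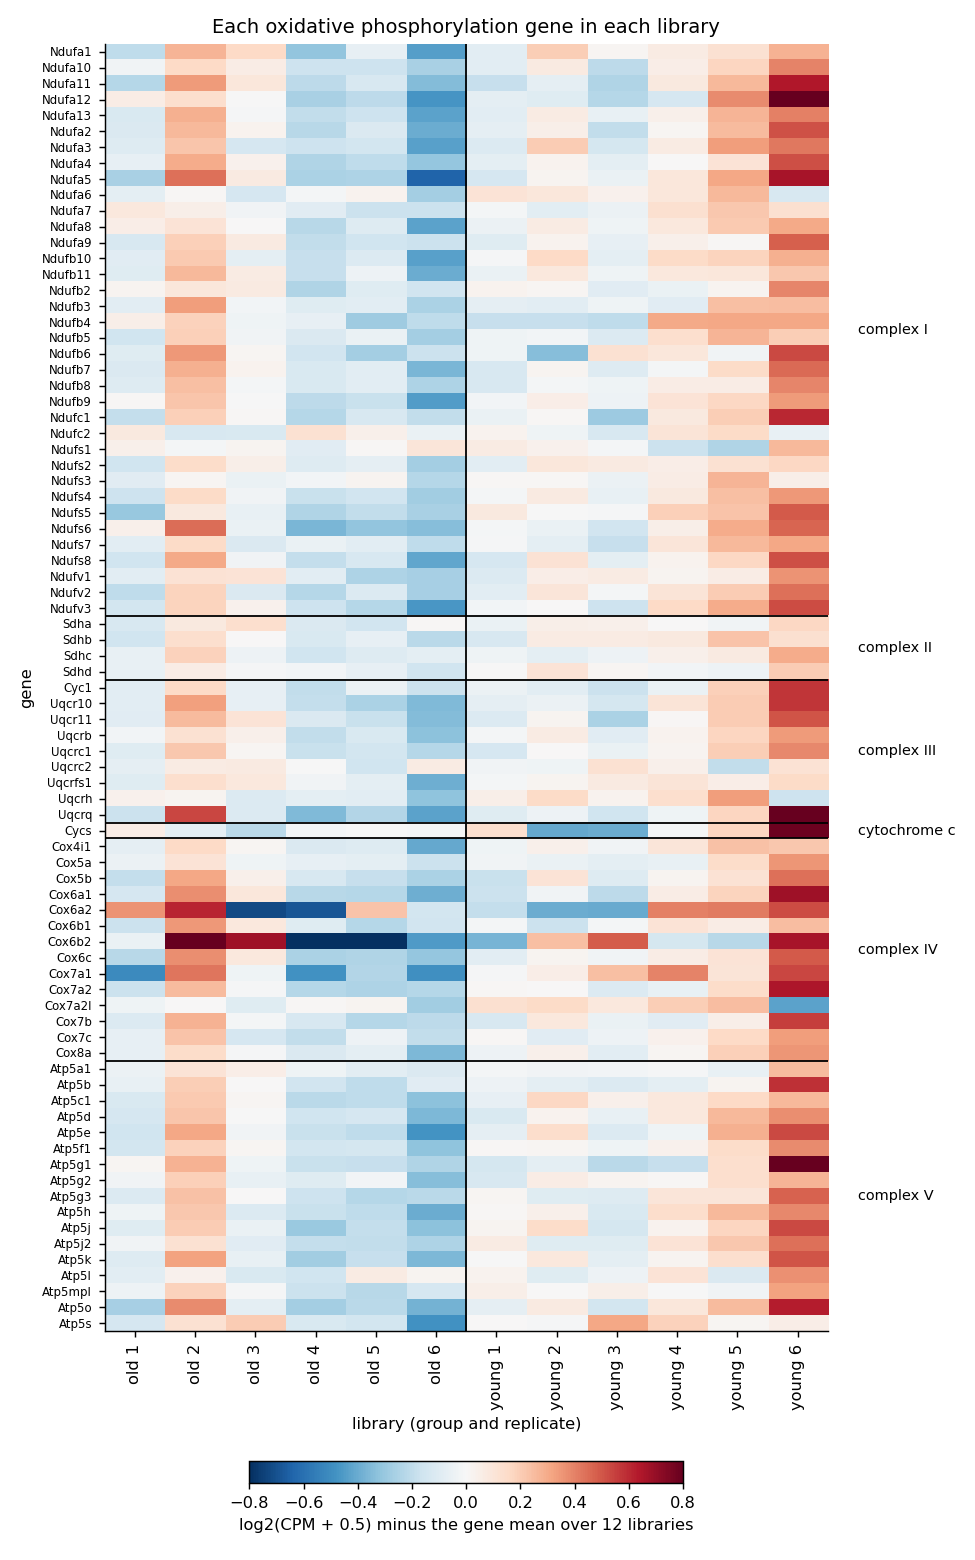
Each of the 81 genes (down) in each library (across, old left of young), with colour for the deviation of its log2 CPM from the gene's mean over all 12 libraries. Old replicate 2 and young replicate 6 are above the mean in most genes (the highest of their groups in 69 genes each), and old replicate 6 is below it in most (the lowest of its group in 56).

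Promoters of these genes are known for sites of nuclear respiratory factor 1 (NRF1), of ETS family factors such as GABP, of YY1 and of CREB. RefSeq promoter sequences (GRCm38.p6, 250 bases before to 50 after the start) were at hand for 65 of the 81 genes. The NRF1 motif (GCGC, then A and any base, then GCGC) stood on either strand in 17 of 65 (26.2%), against 5.19% of 27025 genes. The ETS motif CCGGAAG stood in 16 (24.6%), against 9.93% of all genes, the YY1 motif AAGATGGCG in 7 (10.8%), against 1.64%, and the CREB motif TGACGTCA in 5 (7.69%), against 2.03%. At least 1 of these stood in 38 of 65 promoters (58.5%), against 16.6% of all genes, a gene with several starts in the table being counted if any of them held it. The ETS motif ends and the YY1 motif begins with AAG, so these can overlap. Below are the 180 bases before the RefSeq start of 4 genes that differ in how they followed the library pattern, all on the minus strand and written 5' to 3', with motif matches in capitals. Cox6a1 (chr5:115348959-115349138), a complex IV subunit that was high in both high libraries, has 2 NRF1 matches, 162 to 153 and 117 to 108 bases before the start, and an ETS match 16 to 10 bases before it. Ndufs5 (chr4:123718187-123718366), the member with the lowest p, has an NRF1 match 98 to 89 bases before the start. Cycs (chr6:50566570-50566749), high in young replicate 6 but not in old replicate 2, has a CREB match 169 to 162 bases before it. Cox7a2l (chr17:83514334-83514513), lowest in young replicate 6, has none of these in the stretch, whose RefSeq start lies inside the gene as the files annotate it.
Cox6a1: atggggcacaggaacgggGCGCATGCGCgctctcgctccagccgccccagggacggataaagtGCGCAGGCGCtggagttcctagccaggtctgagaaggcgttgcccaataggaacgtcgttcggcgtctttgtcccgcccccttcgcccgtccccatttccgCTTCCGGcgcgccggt
Ndufs5: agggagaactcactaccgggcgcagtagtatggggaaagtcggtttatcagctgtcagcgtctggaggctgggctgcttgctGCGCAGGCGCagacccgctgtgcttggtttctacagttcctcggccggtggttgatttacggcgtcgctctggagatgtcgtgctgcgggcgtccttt
Cycs: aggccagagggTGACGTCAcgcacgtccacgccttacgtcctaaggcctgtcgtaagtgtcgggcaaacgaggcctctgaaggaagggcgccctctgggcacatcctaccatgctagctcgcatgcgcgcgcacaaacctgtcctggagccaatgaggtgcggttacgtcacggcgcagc
Cox7a2l: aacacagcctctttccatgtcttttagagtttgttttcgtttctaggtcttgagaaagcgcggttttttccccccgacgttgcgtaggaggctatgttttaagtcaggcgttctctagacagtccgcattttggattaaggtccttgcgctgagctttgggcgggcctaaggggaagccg
Only exact matches were searched for, so near matches stay in lower case. The Cycs stretch holds tcgcatgcgc, which differs from the NRF1 motif only in its first letter. A match is a description of the letters and not of binding, and the 4 genes were chosen after their values were seen.

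Complex I, the NADH dehydrogenase, is built of catalytic core subunits and a larger number of accessory subunits. Of its 36 genes 35 had a negative log2 fold change, against 52.5% of all genes tested. At an unadjusted p under 0.05, 6 (16.7%) were lower in old, against 2.24% of all genes. These 6 were all accessory subunits other than Ndufv2. Ndufs5 (ENSMUSG00000028648, chr4:123712710-123718202, minus strand), an accessory subunit of the membrane arm, had 24.4 CPM in the lowest, 25.8 CPM at the median and 31.9 CPM in the highest old library, against 29.95, 33.1 and 42.7 CPM in young libraries. Old replicate 2 alone of the old libraries reached into the young range. Its log2 fold change was -0.34 ± 0.10 (SE), with an adjusted p of 0.770 in edgeR's test. Of the Ndufs5 transcript, 46.9% has near-identical copies elsewhere in the transcript set. Ndufv2, a core subunit that carries an iron-sulphur cluster, had 57.4, 61.8 and 78.3 CPM in old libraries (lowest, median, highest), against 65.1, 74.1 and 93.9 CPM in young libraries, a log2 fold change of -0.25 ± 0.10. Here too old replicate 2 stood far above the other old libraries, which reached 64.1 CPM and so lay wholly under the young range. The other members with an unadjusted p under 0.05 were Ndufs4 (-0.22), an accessory subunit whose loss in mice causes a Leigh-like brain disease, Ndufv3 (-0.27) of the NADH-binding module, and Ndufb10 (-0.22) and Ndufa3 (-0.26) of the membrane arm.

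At the other end of complex I stood Ndufs1, the largest core subunit, with 45.2, 48.6 and 51.5 CPM in old libraries and 40.8, 48.5 and 57.8 CPM in young libraries. It had the only positive log2 fold change of the 81 genes, 0.01 ± 0.08, and its old libraries lay inside the young range. Ndufc2, a membrane-arm subunit, was also nearly level, at 47.7 ± 3.5 CPM in old and 48.4 ± 3.57 CPM in young libraries (SD, n = 6 each). Per length, the most abundant complex I genes were Ndufa2 (574 TPM) and Ndufa1 (421 TPM), both accessory subunits. Ndufa2 had 83.7, 102 and 132 CPM in old libraries (lowest, median, highest) and 96.2, 113 and 157 CPM in young libraries. Ndufa1 had 43.6, 54.1 and 71.9 CPM in old libraries and 56.1, 63.4 and 72.0 CPM in young libraries. In both genes the old median was under the young median and the ranges overlapped widely, with log2 fold changes of -0.19 ± 0.13 and -0.18 ± 0.12. Ndufa12, an accessory subunit at the junction of the arms, showed how much 1 library weighed: young replicate 6 held 35.2 CPM where the young median was 17.4 CPM, while old libraries held 13.2, 17.2 and 20.4 CPM.

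Complex II, succinate dehydrogenase, is the enzyme that the electron transport chain shares with the citric acid cycle, and its 4 genes varied least. Sdha, the flavoprotein subunit that oxidises succinate, had 229, 246 and 280 CPM in old libraries and 246, 259 and 286 CPM in young libraries, with a log2 fold change of -0.06 ± 0.07. Sdhb, the iron-sulphur subunit, had 133, 144 and 169 CPM in old libraries and 141, 162 and 180 CPM in young libraries, with a log2 fold change of -0.14 ± 0.07. The old and young ranges of both genes overlapped along most of their length. Sdhd, a membrane anchor and the most abundant of the 4 per length (318 TPM), had 119, 129 and 139 CPM in old libraries and 129, 133 and 153 CPM in young libraries, a log2 fold change of -0.09 ± 0.06. Sdhc, the other anchor, had -0.09. Old replicate 2 lay above the median of the other 5 old libraries by 0.19 (log2) for Sdha, 0.25 for Sdhb and 0.12 for Sdhd. Young replicate 6 lay above that of the other 5 young libraries by 0.16 for Sdha, 0.06 for Sdhb and 0.21 for Sdhd. The highest old library for Sdha was replicate 3 (280 CPM), and the highest young library for Sdhb was replicate 5 (180 CPM).

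Complex III, the cytochrome bc1 complex, had 9 genes, all with a negative log2 fold change, against 52.5% of all genes tested. Of the 9, 0 had an unadjusted p under 0.05, against 2.24% of all genes lower in old. Uqcrh, the hinge protein that helps cytochrome c dock, came closest: it had 137, 162 and 175 CPM in old libraries (lowest, median, highest) and 152, 182 and 216 CPM in young libraries, with a log2 fold change of -0.18 ± 0.08. Young replicate 6 lay at -0.30 (log2) relative to the other young libraries in Uqcrh, against the direction of most members. Uqcrq, a small membrane subunit, did the opposite and was high in both, by 0.97 (log2) in young replicate 6 and by 0.78 in old replicate 2 relative to the rest of the group. Uqcr10, another small subunit and abundant per length (334 TPM), had 51.0, 59.4 and 82.2 CPM in old libraries and 59.2, 66.8 and 97.3 CPM in young libraries. In it the highest value of each group, old replicate 2 and young replicate 6, stood clear of the rest. Uqcrb, which helps form the ubiquinone site, had 56.5, 67.5 and 77.2 CPM in old libraries and 66.7, 73.4 and 89.95 CPM in young libraries, with -0.17 ± 0.09, though 62.8% of its transcript has near-identical copies elsewhere in the transcript set. Uqcrc2, a core protein, was level at 91.0 ± 5.83 CPM in old and 91.6 ± 7.38 CPM in young libraries (SD, n = 6 each).

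Cytochrome c itself, Cycs (ENSMUSG00000063694, chr6:50562563-50566538, minus strand), did not follow the library pattern of the complexes. It had 29.0, 33.4 and 35.1 CPM in old libraries and 25.3, 35.2 and 58.4 CPM in young libraries, with old replicate 2 at 32.0 CPM, a deviation of -0.07 (log2). Young replicate 6, at 58.4 CPM, lay 0.81 (log2) above the rest of its group. The spread of the young group (SD 12.2 CPM) was wider than that of the old group (SD 2.1 CPM). Its log2 fold change of -0.15 ± 0.17 became 0.04 without young replicate 6. Of the Cycs transcript, 30.3% has near-identical copies elsewhere in the transcript set.

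Complex IV, cytochrome c oxidase, has subunits with tissue-specific isoforms, and the isoforms known from tissues other than heart and skeletal muscle made up nearly all of their mRNA here. Cox6a1, the widespread form, was at 766 ± 164 TPM in old and 840 ± 232 TPM in young libraries, which was 99.3% of the Cox6a family in both groups. Cox6a2, the heart and muscle form, was at 5.41 ± 2.77 TPM in old and 5.65 ± 2.22 TPM in young libraries. Cox4i1 was at 690 ± 90.9 TPM in old and 748 ± 60.3 TPM in young libraries, while Cox4i2, the form known from lung and from low oxygen, had 21 counts over all 12 libraries. Cox8a was the most abundant of all 81 genes, at 926 ± 108 TPM in old and 1002 ± 136 TPM in young libraries, while Cox8b of heart and muscle, Cox8c of testis and Cox7b2 had a count of 0 in all 12 libraries, where 3 counts is the limit a count of 0 allows per library. Cox6b1 was at 620 ± 108 TPM in old and 626 ± 73.7 TPM in young libraries, and Cox6b2 of testis was at 2.58 ± 2.11 TPM in old and 2.79 ± 1.31 TPM in young libraries (SD, n = 6 each, for all of these). The leading member of each of these families was the same in old and young macrophages.

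**Figure D5:**
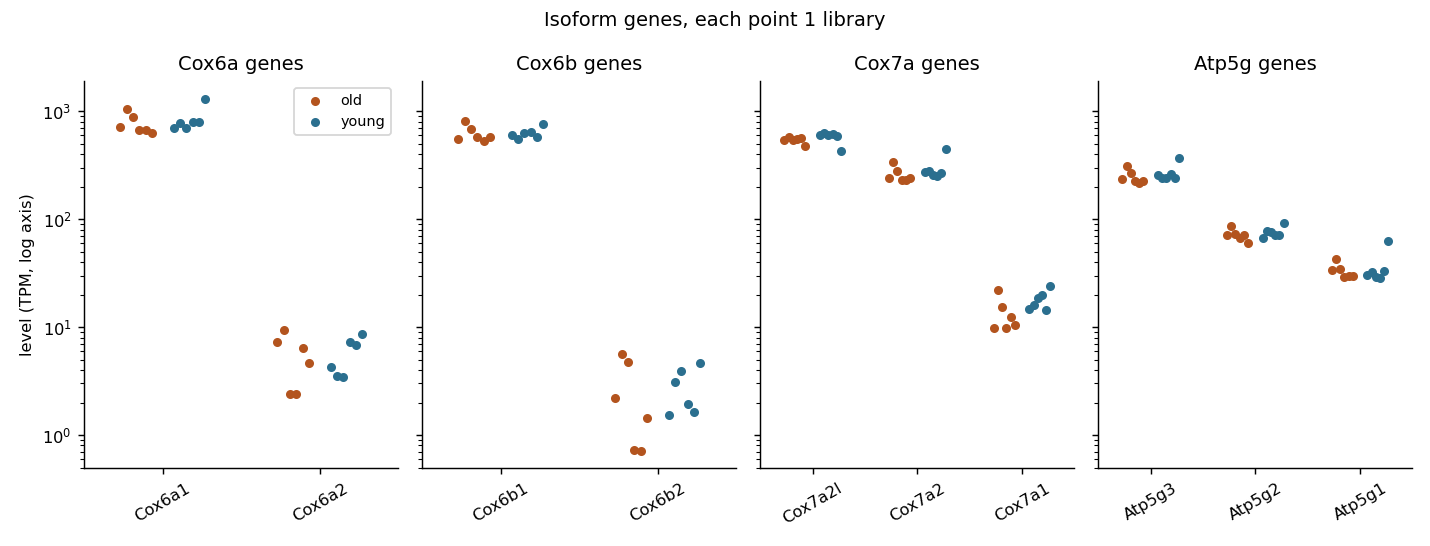
TPM of the Cox6a, Cox6b, Cox7a and Atp5g genes in each library on a log axis, old libraries left of young libraries for each gene. Cox6a1 (766 TPM in old, 840 TPM in young libraries) lies far above Cox6a2 (5.41 TPM in old, 5.65 TPM in young libraries), and the order of the genes of each family by mean TPM is the same in both groups.

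The Cox7a family held the largest age difference of the 81 genes and the clearest exception to the library pattern. Cox7a1 (ENSMUSG00000074218, chr7:30184144-30186078, plus strand), the heart and muscle form, had 1.77, 2.04 and 3.86 CPM in old libraries (lowest, median, highest) and 2.73, 3.16 and 4.2 CPM in young libraries. Old replicate 2 held the 3.86 CPM. Its log2 fold change was -0.48 ± 0.21 (SE), with an adjusted p of 0.770 in edgeR's test, and it was 1.62% of the family's TPM in old and 2.02% in young libraries. Cox7a2, the widespread form, had 73.4, 76.1 and 104 CPM in old libraries and 80.8, 87.7 and 137 CPM in young libraries, and followed the library pattern. Cox7a2l (ENSMUSG00000024248, chr17:83501918-83517330, minus strand), grouped with this family by its name, had 232, 278 and 285 CPM in old libraries and 209, 310 and 333 CPM in young libraries. Its lowest value was that of young replicate 6, with 297 to 333 CPM in the other young libraries, so it was lowest where most members were highest. Cox7a2l made up 66.7% of the family's TPM in old and 65.0% in young libraries, and 17.8% of its transcript has near-identical copies elsewhere.

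Of the other complex IV genes, Cox6a1 had 143, 166 and 243 CPM in old libraries and 163, 190 and 300.4 CPM in young libraries, the highest value of each group being old replicate 2 and young replicate 6. Cox4i1 had 285, 355 and 422 CPM in old libraries and 368, 396 and 443 CPM in young libraries, with a log2 fold change of -0.17 ± 0.09. Cox6c, Cox7c, Cox5a, Cox5b and Cox7b had log2 fold changes from -0.18 to -0.10. Ndufa4, named as a complex I gene but since assigned to complex IV, had 90.9, 103 and 139 CPM in old libraries and 107, 114 and 162 CPM in young libraries, and its low-oxygen relative Ndufa4l2 had 2 counts over all 12 libraries. Its log2 fold change of -0.17 lay near the medians of complex I (-0.16) and complex IV (-0.15).

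Complex V, the ATP synthase, had the most negative median of the complexes, with 17 of 17 genes negative, against 52.5% of all genes tested. At an unadjusted p under 0.05, 4 (23.5%) were lower in old, against 2.24% of all genes. Atp5c1, the gamma subunit of the central shaft, had 177, 199 and 256 CPM in old libraries (lowest, median, highest) and 212, 242 and 266 CPM in young libraries, with a log2 fold change of -0.21 ± 0.09. Atp5j2, the f subunit of the membrane part, had 82.9, 89.3 and 107 CPM in old libraries and 91.9, 105 and 134 CPM in young libraries, with -0.22 ± 0.10. The other members at this p were Atp5j (-0.26), which is subunit F6 of the stalk, and Atp5h (-0.23), subunit d. For Atp5h, 71.1% of the transcript has near-identical copies elsewhere, and the exons of Atp5j share 12.7% of their length with Gabpa, which counting without strand cannot separate. Atp5o, the stalk protein at the top of the enzyme, had a more negative value of -0.28 ± 0.15 with more spread. Of its exon length, 47.9% is shared with other gene IDs. Among these is a second ID named Atp5o, which had a count of 0 in all libraries.

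In the catalytic head of the synthase, the alpha subunit was nearly level and the beta subunit lay near the median member. Atp5a1, the alpha subunit, had 342, 361 and 399 CPM in old libraries and 357, 366 and 442 CPM in young libraries, a log2 fold change of -0.04 ± 0.07. Atp5b, the catalytic beta subunit and the gene with the most counts of the 81, had 507, 555 and 671 CPM in old libraries and 541, 561 and 876 CPM in young libraries, -0.12 ± 0.12. In both genes the medians of the groups lay close together, and young replicate 6 alone was far above. Without it the log2 fold change was 0.01 for Atp5a1 and 0.01 for Atp5b, where the median of the 81 genes was -0.09. With old replicates 2 and 3 left out as well, it was -0.04 for Atp5a1 and -0.07 for Atp5b, where that median was -0.20. Subunit c, which forms the rotor ring, is made from 3 genes for the same mature protein, and Atp5g3 led with 246 ± 35.0 TPM in old and 267 ± 49.3 TPM in young libraries, 70.1% of the family's TPM in old and 70.6% in young libraries. Atp5g2 followed at 71.8 ± 8.68 TPM in old and 75.6 ± 8.97 TPM in young libraries, and Atp5g1 at 33.2 ± 4.99 TPM in old and 35.9 ± 12.9 TPM in young libraries (SD, n = 6 each). In old replicate 2, Atp5g1 lay 0.46 (log2) and Atp5g3 0.40 above the rest of the group, and in young replicate 6, Atp5g1 lay 0.97 and Atp5g3 0.46 above it. Atp5k, the small e subunit, was the next most abundant gene per length after Atp5b, at 374 TPM, with 60.2, 70.0 and 97.0 CPM in old libraries and 73.2, 80.2 and 110 CPM in young libraries.

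Levels per length spread from 2.69 TPM for Cox6b2 to 964 TPM for Cox8a, with a median of 120 TPM, although the subunits of a complex are needed in fixed proportion. Apart from the tissue-specific isoforms, the lowest were Ndufb2 (4.44 TPM), Atp5l (5.66 TPM), Atp5s (8.20 TPM), a coupling factor named with the subunits, Ndufb4 (13.6 TPM) and Ndufs1 (17.6 TPM). The deposited exon length of Ndufb2 is 5628 bases, that of Atp5l 6443 bases and that of Ndufs1 8086 bases, since it covers every annotated transcript of a gene. Without scaling for length, Ndufb2 (8.50 CPM) and Ndufb4 (8.88 CPM) were among the lowest members too. Near-identical copies are a further limit: 16 of 81 members share a stretch of at least 75 bases at 98% identity or more with another transcript, and reads that align to several places were not counted. Among the low genes, such stretches make up 57.4% of the Atp5l transcript and 40.2% of the Ndufb4 transcript. Whether this touched the comparison between libraries was not tested.

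Genes that serve the same machinery had medians nearer to 0 than the members, and 0 of them passed the adjusted threshold in edgeR's test. Of all genes tested, 52.5% were negative, and at an unadjusted p under 0.05, 2.24% were lower and 3.23% higher in old. Of 45 assembly factors tested the median log2 fold change was -0.07, with 35 negative, 3 lower and 1 higher in old at an unadjusted p under 0.05. The lowest p among them was that of Sdhaf4, which helps the assembly of complex II by binding Sdha, at 9.78 ± 1.52 CPM in old and 11.9 ± 1.13 CPM in young libraries. Of 25 genes of mitochondrial protein import and folding the median was -0.12, with 22 negative and 3 lower in old at that p, led by Hspe1, the small mitochondrial chaperonin, at 69.5 ± 2.94 CPM in old and 81.1 ± 6.53 CPM in young libraries (SD, n = 6 each). The 16 genes of carriers and electron entry had a median of -0.11, with 13 negative and the lowest p in Vdac3, a pore of the outer membrane (-0.16 ± 0.09). The 18 citric acid cycle genes had a median of -0.08, with 13 negative and the lowest p in Suclg1, a subunit of succinyl-CoA ligase (-0.15 ± 0.09). Neither of these lists had a gene at an unadjusted p under 0.05.

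Regulators of mitochondrial gene expression were divided in direction, as were all genes tested, of which 52.5% were negative. Of 19 tested, 11 were negative with a median of -0.02, and the lowest p was that of Gabpa, the DNA-binding subunit of GABP, at 30.1 ± 2.41 CPM in old and 26.2 ± 2.59 CPM in young libraries (SD, n = 6 each), with a log2 fold change of 0.20 ± 0.08 and an adjusted p of 0.770 in edgeR's test. Nrf1 was at 27.5 ± 3.93 CPM in old and 29.1 ± 1.83 CPM in young libraries, and Tfam, which packages and transcribes mitochondrial DNA, at 22.6 ± 1.65 CPM in old and 23.8 ± 0.969 CPM in young libraries. Ppargc1a, the coactivator known to drive mitochondrial biogenesis in muscle and brown fat, was at 0.110 CPM in old and 0.0563 CPM in young libraries, where 3 counts in a library are worth 0.119 to 0.155 CPM. Of the genes for respiratory subunits in mitochondrial DNA, 11 of 13 were tested, with a median of -0.12 and 8 negative. At an unadjusted p under 0.05 in edgeR's test, 2 were lower and 0 higher in old, against 2.24% and 3.23% of all genes. The lowest p was that of mt-Nd4, a proton-pumping subunit of complex I, at 1099 ± 134 CPM in old and 1270 ± 116 CPM in young libraries (-0.21 ± 0.09). In contrast mt-Co1, the catalytic subunit of complex IV, was at 6018 ± 840 CPM in old and 5234 ± 641 CPM in young libraries (0.20 ± 0.11).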

How the data were processed

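Read counts per gene were deposited by the authors for 12 libraries and used as given. Per the file headers, whole reads were counted with featureCounts 1.6.0 on Ensembl release 100 exons, with no strand setting and without multiply aligned reads, and STAR and mm10 stand in the submitters' processing notes. The file's columns were matched to the labels by group letter and replicate number. Gene names came from a reference table (55141 of 55401 IDs) and biotypes from GENCODE. Counts were tested with edgeR 4.0.16 (R 4.3.3) on the whole table. Its quasi-likelihood test was run with TMM scaling, robust estimation and edgeR's low-count filter, the group as the only term and Benjamini-Hochberg adjustment at 0.05. P-values were two-sided. The test was checked on simulated counts, with 50 genes changed at each fold. It recovered 4% of genes changed 1.2-fold, 36% at 1.5-fold, 82% at 2-fold and 100% at 4-fold. Changes smaller than 1.2-fold were not simulated. CPM use TMM factors, and TPM use the deposited exon lengths. For standard errors, the log2 fold change was divided by the square root of F. The common biological coefficient of variation was 21.7%. No 2 libraries agreed within sampling noise. Intervals and limits of 3 counts cover counting error only.

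Alternatives were RLE, upper quartile and library-size scaling, other filters, DESeq2 1.42.0, limma voom 3.58.1, no robust fitting, a replicate block, a cell cycle covariate and libraries left out. The set without old replicates 2, 3 and 6 and young replicate 6 was chosen after seeing the data. The set without old replicates 2 and 3 and young replicate 6 was planned, but with earlier results of these same data known. Near-identical copies were found with blastn 2.17.0. The members and lists were chosen with earlier results of these data known. Genes were named by a rule: in each complex the 2 most abundant per length, the 2 of lowest p and the highest log2 fold change, all isoform families, and the lowest p of each other list. Genes outside it were named after their values were seen, among them Ndufs4, Ndufv3, Ndufb10, Ndufa3, Ndufc2, Ndufa12, Uqcrq, Atp5j, Atp5h, Atp5o and mt-Co1. Ndufb1-ps, left out for its name, was at 68.0 CPM in old and 75.2 CPM in young libraries.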

Additional observations from a re-analysis of the deposited data

Results flagged for a closer look

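In groups of 6, a library was set apart where its gap to the nearest other library exceeded 0.625 of the group's range (Dixon's test), which chance does in about 1 of 20 groups. The groups examined were not independent: they hold the same libraries, and many hold genes that moved together or sums of them. Of 102 such groups among the named genes, complexes and lists, 24 met this. Of the 24, 20 were young replicate 6, which are not 20 separate results for young replicate 6. It was the highest of the young group for Ndufa4 (162 CPM), Cox6a1 (300.4 CPM), Cox7a2 (137 CPM), Atp5a1 (442 CPM), Atp5b (876 CPM), Atp5g1 (99.9 CPM), Atp5g3 (262 CPM) and Atp5k (110 CPM). It was the lowest for Cox7a2l (209 CPM). The summed level of the 81 genes in young replicate 6 was 20382 TPM, with 6189 TPM for complex I, 2518 TPM for complex III, 6270 TPM for complex IV and 4379 TPM for complex V, each the highest of the young group. Lists of the same library that stood highest were cell cycle genes (4044 TPM), assembly factors (1467 TPM), the citric acid cycle (1531 TPM), carriers and electron entry (2853 TPM) and import (2054 TPM), and its macrophage markers stood lowest (64267 TPM).

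Old replicate 2 was set apart as the highest of the old group for Ndufv2 (78.3 CPM) and Uqcr10 (82.2 CPM). Old replicate 6 was set apart for T and NK cell markers (45.2 TPM) and osteoclast markers (463 TPM).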

How the results depend on the processing

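The count of members past the adjusted threshold was 0 under all 24 alternatives, and the median log2 fold change of the members stayed negative, from -0.22 without old replicate 2 to -0.09 without young replicate 6. The number with a negative value lay between 73 and 81 when 1 library was left out. The number at an unadjusted p under 0.05 was 11 as reported. It was 1 with library-size scaling, 18 with the cell cycle covariate, 51 without old replicates 2 and 3 and young replicate 6, 39 with old replicate 6 left out as well, and between 2 and 43 when 1 library was left out. With the replicate number as a block it was 6, with a median of -0.16 and 0 members past the adjusted threshold. The numbers were not taken to pair libraries, since the labels do not say that they do. Same-numbered libraries correlated in their deviations at 0.31, 0.12, 0.02, 0.38, 0.39 and -0.17 for replicates 1 to 6. Old and young replicate 1 were each other's best match. Whether some numbers mark shared handling was not tested.

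Of 743 values of the 31 named genes under alternatives, 22 in 8 genes turned sign, none past the adjusted threshold either way, and the cause was not tested. When 1 library was left out, the log2 fold change ranged from -0.031 to 0.072 for Ndufs1, from -0.047 to 0.020 for Uqcrc2, from -0.23 to 0.043 for Cycs, from -0.34 to 0.038 for Cox6a2 and from -0.52 to 0.044 for Cox6b2. It ranged from -0.066 to 0.010 for Atp5a1, from -0.17 to 0.012 for Atp5b and from -0.23 to 0.047 for Atp5g1. The upper end came without young replicate 6 for all but Uqcrc2 (old replicate 5), Cox6a2 (old replicate 3) and Cox6b2 (old replicate 5). Uqcrc2 was 0.0056 with library-size scaling and 0.0088 with the cell cycle covariate. Cycs was 0.091 without old replicates 2 and 3 and young replicate 6 and 0.099 with old replicate 6 left out as well, where Cox6a2 was 0.034. Cox6b2 was not among the genes kept by the filter of 1 CPM in 6 libraries.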
